A study of Mus musculus with 16 samples.

Results

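The phase II conjugating enzymes are the genes of 3 enzyme superfamilies: the UDP-glucuronosyltransferases (UGT), the cytosolic sulfotransferases (SULT) and the soluble glutathione S-transferases (GST). Members were the genes whose probe sets carried a single platform symbol of the families Ugt1a, Ugt2a, Ugt2b, Ugt3a, Sult or Gst (classes alpha, kappa, mu, omega, pi, theta and zeta), with the probe set of highest mean over the 16 arrays standing for each gene. The rule found 45 genes among 19938 genes with such a probe set: 10 UGT, 16 SULT and 19 GST genes. It found 0 genes of the UGT1A family, because the probe set that holds Ugt1a names carries several symbols. The 45 genes are represented by 46 probe sets, and 37 of them passed the filter on low values, which asked for a value above the 30th percentile of the array in at least 4 of the 16 arrays.

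Gene expression was measured on Affymetrix whole-transcript arrays in whole livers of male C57Bl/6 mice, with 4 samples in each of 4 groups. The groups were S534A mice given 1 mg/kg lipopolysaccharide (LPS), untreated S534A mice, wild-type (WT) mice given the same dose of LPS, and untreated WT mice. S534A mice carry, in every cell and on both alleles, a serine to alanine codon change in p65, the NF-kB subunit encoded by Rela. The line was made from targeted embryonic stem cells, passed through a FLPe cross that removed the selection cassette, backcrossed to C57Bl6/J and bred to homozygosity. LPS is a bacterial endotoxin sensed through TLR4. The sources used here give no age, no interval between LPS and collection and no vehicle group, so effects of LPS and of handling, food intake or collection time cannot be told apart. The labels do not say that samples of a group are separate animals, so p-values measure a spread that may be technical.

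Phase II enzymes attach a polar group to drugs, steroids, bile acids, thyroid hormones and reactive electrophiles, which makes these compounds easier to excrete in bile and urine. UGT enzymes transfer glucuronic acid from UDP-glucuronic acid in the endoplasmic reticulum, SULT enzymes transfer sulfate from PAPS in the cytosol, and GST enzymes add glutathione. Hepatocytes are the main site of all 3 reactions, and the enzymes are under the control of nuclear receptors such as CAR (Nr1i3), PXR (Nr1i2) and PPAR alpha, of NRF2, and of the clock-driven factors Dbp, Tef and Hlf.

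Values are log2 intensities as deposited, and a change is a difference of log2 group means with its standard error (SE, n = 4 arrays per group). The filter line lay between 5.25 and 5.44 in the 16 arrays. Levels of different genes come from different probes and are not compared. Array medians ran from 6.39 to 6.42 in S534A LPS, 6.27 to 6.35 in untreated S534A, 6.37 to 6.42 in WT LPS and 6.25 to 6.33 in untreated WT livers. The mean of a list of 9 hepatocyte markers lay between 13.34 and 13.46 in every array, although its members did not all stay level. Asgr1 averaged 11.90 in untreated and 11.64 in LPS S534A livers, and 12.05 and 11.69 in WT livers. Fgb averaged 13.52 in untreated and 13.84 in LPS S534A livers, and 13.52 and 13.82 in WT livers. The level mean is thus not read as a constant share of hepatocytes. Among the untreated livers, a clock score (Arntl subtracted from the mean of Tef, Dbp and the 3 Per genes) split the arrays. It was 3.33, 3.41, −2.55 and 0.96 in untreated S534A and −1.70, 3.43, −1.77 and 3.47 in untreated WT livers. After LPS it was 0.99, −0.70, 0.88 and 1.63 in S534A and 0.67, 1.53, −0.01 and 0.94 in WT livers. Counts are therefore also given without untreated S534A replicate 3 and untreated WT replicates 1 and 3, which had been picked in earlier work on these data. That setting leaves only replicates 2 and 4 of the untreated WT livers. Their scores of 3.43 and 3.47 lay above those of all WT LPS livers. The setting therefore does not match LPS and untreated WT livers for the clock. For a call lost or gained there, or a change that grew, fewer arrays and the clock cannot be told apart.

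Promoter sequences were available for 41 of the 45 members (RefSeq, GRCm38.p6). Shown here are the 250 bases before the start of 4 UGT2 genes of the chromosome 5 cluster. Ugt2b35 and Ugt2a3 fell after LPS in both genotypes, and Ugt2b36 and Ugt2b1 were not called. Capitals mark the match to TTANNTAA, a loose AT-rich pattern that takes in the D-box bound by Dbp, Tef and Hlf (TTACGTAA or TTATGTAA) and also other runs, such as TATA-type elements. The windows are chr5:87000610-87000859 on the plus strand for Ugt2b35, chr5:87337196-87337445 on the minus strand for Ugt2a3, chr5:87092556-87092805 on the minus strand for Ugt2b36 and chr5:86926504-86926753 on the minus strand for Ugt2b1, each written 5′ to 3′ along the gene.
Ugt2b35: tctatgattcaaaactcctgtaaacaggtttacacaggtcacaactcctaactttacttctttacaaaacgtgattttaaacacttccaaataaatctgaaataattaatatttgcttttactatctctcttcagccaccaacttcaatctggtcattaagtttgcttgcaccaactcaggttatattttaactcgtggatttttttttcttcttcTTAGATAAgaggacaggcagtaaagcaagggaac
Ugt2a3: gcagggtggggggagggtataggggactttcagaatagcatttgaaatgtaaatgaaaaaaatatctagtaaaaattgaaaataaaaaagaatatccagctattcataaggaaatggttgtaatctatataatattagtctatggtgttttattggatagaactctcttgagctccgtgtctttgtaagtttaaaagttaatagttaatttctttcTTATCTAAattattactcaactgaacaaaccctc
Ugt2b36: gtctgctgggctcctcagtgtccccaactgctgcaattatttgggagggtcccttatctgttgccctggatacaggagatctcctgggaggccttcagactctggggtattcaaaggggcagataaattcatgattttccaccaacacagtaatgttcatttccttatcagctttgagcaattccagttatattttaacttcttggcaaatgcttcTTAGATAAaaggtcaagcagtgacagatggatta
Ugt2b1: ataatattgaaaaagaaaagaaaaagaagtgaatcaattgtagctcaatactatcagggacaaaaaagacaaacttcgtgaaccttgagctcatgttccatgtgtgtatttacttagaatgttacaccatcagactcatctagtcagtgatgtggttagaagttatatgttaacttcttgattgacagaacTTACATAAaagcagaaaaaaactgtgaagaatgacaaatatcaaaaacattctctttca
The match began 34 bases before the start in Ugt2b35, Ugt2a3 and Ugt2b36 and 59 bases before it in Ugt2b1. The 3 matches that began at 34 bases overlap the place where TATA elements peak: over all windows TATAAA, searched along the gene's strand, was most frequent from 30 to 21 bases before the start. Their middle letters are not those of the D-box. The D-box itself was found in 1 of the 41 members, Ugt2b1, where it lies on the other strand, and in 0.931% of windows. Over the last 50 bases before the start, Ugt2b35 and Ugt2b36 shared 30 letters (60.0%), and Ugt2a3 and Ugt2b35 shared 22 (44.0%). Ugt2b35, which fell, and Ugt2b36, which was not called, thus had the same 8 letters at the same distance. Searched on both strands, TTANNTAA was present in 5.43% of 32851 promoter windows of this length and in 6 of the 41 members, the other members being Gsta3 and Sult1a1. GTTAAT, a core of the HNF1 site, was present in 6.43% of windows and 8 members, TGACNNNGC, the core of the antioxidant response element, in 10.2% of windows and 3 members (Gsta3, Gstm5 and Gstm7), and a kB-type pattern (GGGA, 3 bases of any kind, then CCC) in 4.77% of windows and 0 members. Apart from the D-box of Ugt2b1, which lies within its TTANNTAA match, no match in a member overlapped a match to another of these patterns. The 41 members have 52 windows, and a member was counted when any of its windows matched. Member counts and shares of windows are therefore not in the same unit. A match is a run of letters and was not tested for binding.

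After LPS, more members fell than rose in both genotypes. In S534A livers, 21 of the 37 tested members fell, 2 rose and 14 passed in neither direction (limma, adjusted p under 0.05 over 15908 genes). Of all genes tested, 31.2% fell and 14.2% rose in that comparison, against 56.8% and 5.41% of the members. In WT livers, 18 members fell, 1 rose and 18 passed in neither direction. Of all genes, 29.9% fell and 14.9% rose in WT livers, against 48.6% and 2.70% of the members. The median member change was −0.31 in S534A and −0.20 in WT livers, and the median over all genes was −0.03 in S534A and −0.05 in WT livers. In S534A livers 19 members lay below their untreated group in every LPS array and 1 above, where 31.7% of all genes lay below and 16.4% above. In WT livers 13 lay below and 1 above, where 25.6% of all genes lay below and 12.7% above. These are whole-liver measurements, so fewer cells of a type and less RNA per cell cannot be told apart.

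Without the 3 untreated arrays of low clock score, 20 members fell and 1 rose in S534A livers, and 13 fell and 1 rose in WT livers. In that setting 31.1% of all genes fell and 14.2% rose in S534A, and 28.1% fell and 14.1% rose in WT livers. The share of members that fell in WT livers thus lay closer to that of all genes than in the main fit. With the clock score as a covariate, the counts were 21 and 2 in S534A and 18 and 1 in WT livers, and all 42 calls held. The shares of all genes with that covariate were 33.2% lower and 15.7% higher in S534A, and 32.3% lower and 16.3% higher in WT livers. Most changes were small: 4 members fell 2-fold or more in S534A livers (Gstt2, Sult1c2, Sult1b1 and Ugt2b35) and 1 in WT livers (Gstt2). The share of all genes that fell 2-fold or more was not computed. The 2 LPS comparisons share no array. The same 16 members fell in both, which is 76.2% of those that fell in S534A and 88.9% of those that fell in WT livers. Changes had the same sign in 34 of 37 members, and their Pearson r across members was 0.87, a description over genes that are not independent replicates. The overlap, the shared signs and r were not computed over all genes. They are therefore not read as particular to the members. When arrays were centred on their medians, the median change of all genes was −0.13 in S534A and −0.16 in WT livers, and 25 members then fell and 1 rose in S534A, and 26 fell and 1 rose in WT livers. Of all genes, 39.2% then fell and 10.7% rose in S534A, and 40.8% fell and 11.6% rose in WT livers.

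**Figure D1:**
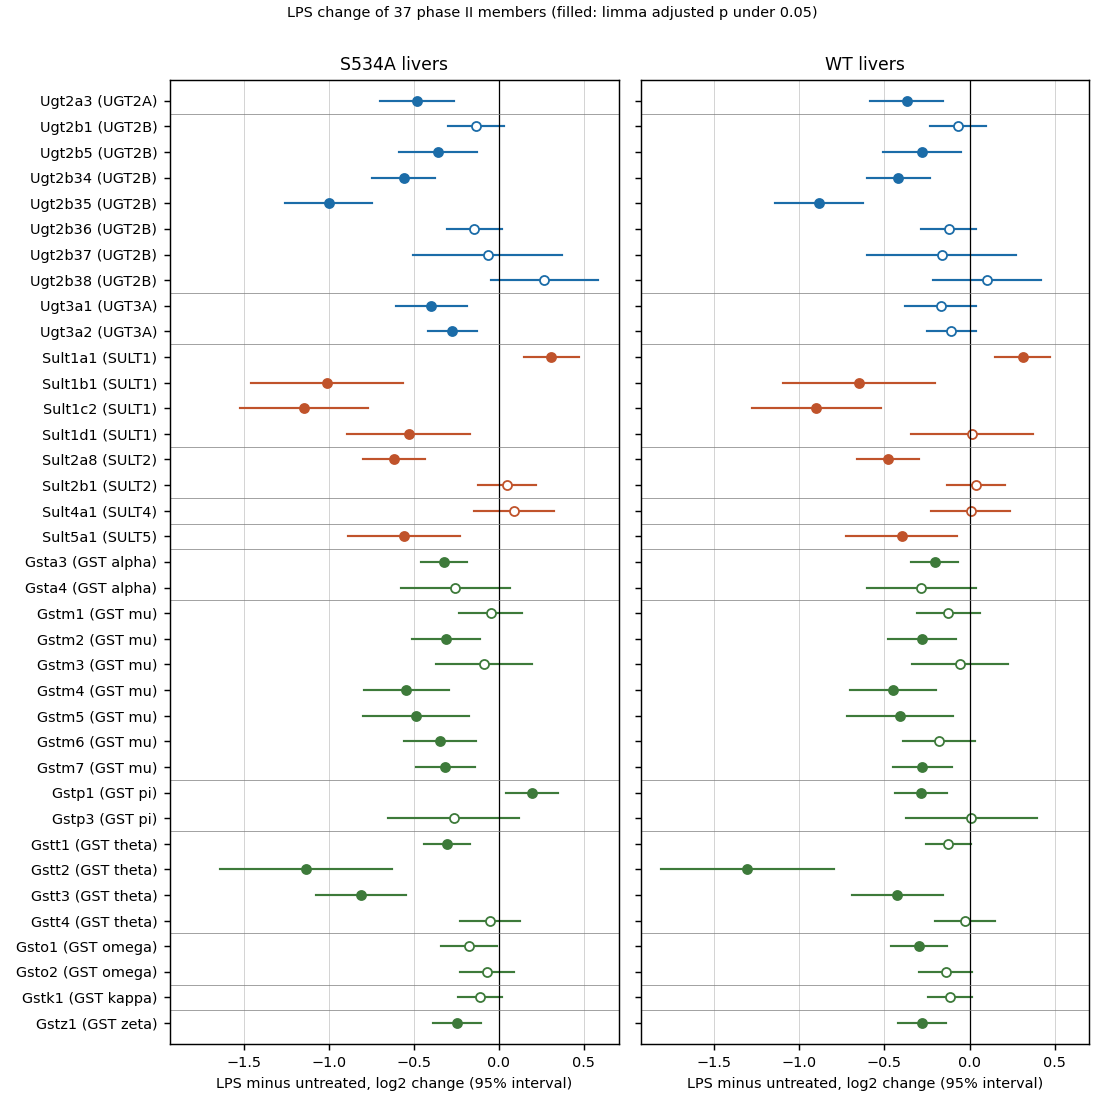
LPS minus untreated change on the log2 scale (horizontal axis) with its 95% interval for the 37 tested members, in S534A livers on the left and WT livers on the right. Filled points passed limma at an adjusted p under 0.05. Most filled points lie left of 0, Sult1a1 lies right of 0 in both panels, and Gstp1 lies on opposite sides of 0 in the 2 panels.

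UGT2 genes are on chromosome 5 and encode enzymes that glucuronidate steroids, bile acids, fatty acid derivatives and drugs. The UGT2B genes are close paralogs, and cross-hybridization between them was not tested. Of all 10 UGT genes, 6 fell and 0 rose in S534A livers, where 31.2% of all genes fell and 14.2% rose. In WT livers 4 of the 10 fell and 0 rose, where 29.9% of all genes fell and 14.9% rose. The part that fell thus lay closer to the share of all genes in WT than in S534A livers. Of the 8 UGT2 members, 4 fell in S534A and 4 fell in WT livers, and they were the same genes: Ugt2b35, Ugt2b34, Ugt2b5 and Ugt2a3. The other 4 passed in neither.

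Ugt2b35 had log2 values of 9.65, 9.91, 10.37 and 9.81 in the S534A LPS livers, 11.00, 11.01, 10.90 and 10.85 in the untreated S534A livers, 10.10, 10.01, 9.83 and 9.86 in the WT LPS livers, and 10.72, 10.80, 10.80 and 11.03 in the untreated WT livers. Every LPS array lay below every untreated array of its genotype, with S534A LPS replicate 3 the highest of the LPS arrays. It fell by 1.00 ± 0.12 in S534A livers, 2.00-fold (limma adjusted p = 3.67e-06), and changed by −0.89 ± 0.12 in WT livers, a 1.85-fold fall (limma adjusted p = 1.39e-05). Its promoter is the first of the 4 printed above.

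Ugt2b34 had values of 12.00, 12.38, 12.41 and 12.23 in the S534A LPS livers, 12.86, 12.84, 12.80 and 12.77 in the untreated S534A livers, 12.33, 12.05, 12.15 and 12.14 in the WT LPS livers, and 12.56, 12.47, 12.67 and 12.64 in the untreated WT livers. LPS and untreated groups did not overlap in either genotype, and the untreated S534A livers were all above the untreated WT livers. Its change was −0.56 ± 0.09 in S534A (limma adjusted p = 5.45e-05) and −0.42 ± 0.09 in WT livers (limma adjusted p = 0.000856).

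Ugt2a3, whose human counterpart glucuronidates bile acids, had values of 11.81, 11.64, 11.81 and 11.69 in the S534A LPS livers, 12.44, 12.24, 12.14 and 12.05 in the untreated S534A livers, 11.81, 11.83, 11.75 and 11.43 in the WT LPS livers, and 12.00, 11.98, 12.05 and 12.28 in the untreated WT livers. The LPS arrays lay below the untreated arrays in both genotypes. The change was −0.48 ± 0.10 in S534A (limma adjusted p = 0.000911) and −0.37 ± 0.10 in WT livers (limma adjusted p = 0.00684).

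Ugt2b5 had values of 12.01, 11.85, 12.37 and 11.79 in the S534A LPS livers, 12.48, 12.40, 12.36 and 12.23 in the untreated S534A livers, 12.17, 12.01, 12.07 and 11.89 in the WT LPS livers, and 12.39, 12.19, 12.29 and 12.39 in the untreated WT livers. The S534A groups overlapped through LPS replicate 3, and the WT groups did not overlap. The change was −0.36 ± 0.11 in S534A (limma adjusted p = 0.0113) and −0.28 ± 0.11 in WT livers (limma adjusted p = 0.0449). The WT call is close to the threshold: it was lost without the 3 arrays of low clock score (adjusted p = 0.175) and without any of untreated WT replicates 1, 3 and 4, WT LPS replicates 2, 3 and 4, S534A LPS replicate 1 and untreated S534A replicates 2 and 3, with adjusted p values up to 0.133.

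Ugt2b36 had values of 12.68, 12.61, 12.90 and 12.63 in the S534A LPS livers, 12.94, 12.84, 12.85 and 12.77 in the untreated S534A livers, 12.86, 12.72, 12.77 and 12.67 in the WT LPS livers, and 12.86, 12.78, 12.87 and 13.00 in the untreated WT livers. Its groups overlapped, and its changes of −0.15 ± 0.08 in S534A (limma adjusted p = 0.135) and −0.12 ± 0.08 in WT livers (limma adjusted p = 0.221) did not pass. Ugt2b1 had values of 12.81, 12.91, 13.12 and 12.83 in the S534A LPS livers, 13.14, 13.08, 13.02 and 12.96 in the untreated S534A livers, 13.03, 12.88, 12.94 and 12.78 in the WT LPS livers, and 12.98, 12.94, 12.95 and 13.04 in the untreated WT livers. Its groups overlapped too, and its changes of −0.13 ± 0.08 in S534A and −0.07 ± 0.08 in WT livers did not pass (limma adjusted p = 0.184 and 0.528). The 95% intervals for Ugt2b1, −0.30 to 0.03 in S534A and −0.23 to 0.09 in WT livers, leave out a 1.5-fold fall. Without S534A LPS replicate 3 both genes passed in S534A livers (Ugt2b36 −0.21, adjusted p = 0.0298; Ugt2b1 −0.20, adjusted p = 0.0372). Ugt2b37 (−0.07 ± 0.21 in S534A, −0.16 ± 0.21 in WT) and Ugt2b38 (0.27 ± 0.15 in S534A, 0.10 ± 0.15 in WT) did not pass either.

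The UGT3A enzymes, on chromosome 15, use sugars other than glucuronic acid, N-acetylglucosamine for human UGT3A1 and glucose or xylose for human UGT3A2. Ugt3a1 had values of 11.17, 11.11, 11.42 and 11.24 in the S534A LPS livers, 11.71, 11.62, 11.63 and 11.56 in the untreated S534A livers, 11.58, 11.19, 11.54 and 11.19 in the WT LPS livers, and 11.50, 11.40, 11.64 and 11.64 in the untreated WT livers. The S534A groups did not overlap and the WT groups did. Ugt3a1 changed by −0.40 ± 0.10 in S534A (limma adjusted p = 0.00333) and by −0.17 ± 0.10 in WT livers, which did not pass (limma adjusted p = 0.188). Ugt3a2 had values of 12.40, 12.45, 12.63 and 12.50 in the S534A LPS livers, 12.85, 12.80, 12.74 and 12.68 in the untreated S534A livers, 12.58, 12.52, 12.65 and 12.54 in the WT LPS livers, and 12.67, 12.66, 12.60 and 12.80 in the untreated WT livers. As for Ugt3a1, the S534A groups were apart and the WT groups overlapped. Ugt3a2 changed by −0.27 ± 0.07 in S534A (limma adjusted p = 0.00315) and by −0.11 ± 0.07 in WT livers, which did not pass (limma adjusted p = 0.225). The difference between the genotypes in the LPS change did not pass for either gene: it was −0.23 ± 0.14 for Ugt3a1 and −0.17 ± 0.10 for Ugt3a2 (limma adjusted p = 0.951 for both).

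**Figure D2:**
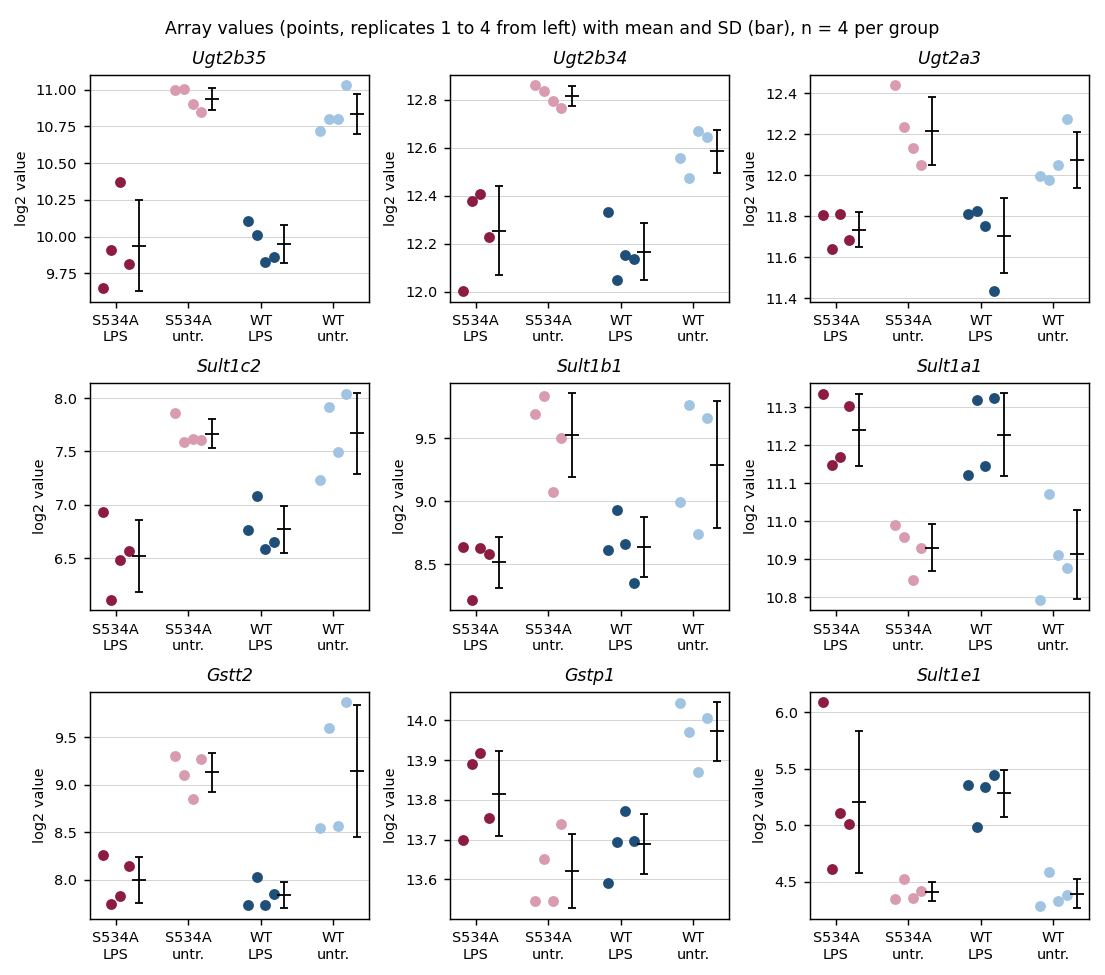
Deposited log2 values of 9 members in each array (points, replicates 1 to 4 from the left in each group) with the group mean and SD (bar), for S534A LPS, untreated S534A, WT LPS and untreated WT livers. Ugt2b35, Ugt2b34, Ugt2a3 and Sult1c2 are lower in every LPS array than in any untreated array of the same genotype, Sult1a1 and Sult1e1 are higher, and in untreated WT livers Gstt2 and Sult1b1 split into a pair of low arrays (replicates 1 and 3) and a pair of high arrays (replicates 2 and 4).

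Of the 16 SULT genes, 8 passed the filter. In S534A livers 5 of the 8 fell (62.5%, against 31.2% of all genes) and 1 rose (12.5%, against 14.2%). In WT livers 4 of the 8 fell, where 29.9% of all genes did, and 1 rose (12.5%, against 14.9%). The share that rose was near that of all genes in both genotypes. The 8 that did not pass were Sult1c1, Sult1e1, Sult2a3, Sult2a6, Sult3a1, Sult3a2, Sult6b1 and Sult6b2, with means over the 16 arrays between 4.17 and 4.83. Sult1e1 was above the filter line in 2 arrays and the other 7 in 0 arrays.

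Sult1c2, whose human counterpart acts on small phenols and hydroxylamines, had values of 6.93, 6.11, 6.48 and 6.57 in the S534A LPS livers, 7.86, 7.59, 7.62 and 7.60 in the untreated S534A livers, 6.76, 7.08, 6.58 and 6.65 in the WT LPS livers, and 7.23, 7.92, 7.49 and 8.04 in the untreated WT livers. LPS and untreated arrays did not overlap in either genotype, and S534A LPS replicate 2 was the lowest of all 16. The change was −1.14 ± 0.18 in S534A, a 2.21-fold fall (limma adjusted p = 5.17e-05), and −0.90 ± 0.18 in WT livers, a 1.87-fold fall (limma adjusted p = 0.000521).

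Sult1b1, which sulfates thyroid hormones, had values of 8.63, 8.22, 8.62 and 8.58 in the S534A LPS livers, 9.69, 9.83, 9.07 and 9.50 in the untreated S534A livers, 8.61, 8.93, 8.66 and 8.35 in the WT LPS livers, and 9.0, 9.77, 8.74 and 9.66 in the untreated WT livers. The S534A groups did not overlap, and the WT groups overlapped through untreated WT replicate 3. Untreated WT replicates 1 and 3, the arrays of low clock score, lay closest to the LPS arrays. The change was −1.01 ± 0.21 in S534A, a 2.02-fold fall (limma adjusted p = 0.000776), and −0.65 ± 0.21 in WT livers (limma adjusted p = 0.0179). Without the 3 arrays of low clock score the WT change was −1.08. The WT call was lost without untreated WT replicate 2 (change −0.49, adjusted p = 0.0706), untreated WT replicate 4 (−0.53, 0.0635) or WT LPS replicate 4 (−0.56, 0.0621).

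Sult1a1, the phenol sulfotransferase, rose in both genotypes. Its values were 11.34, 11.15, 11.17 and 11.30 in the S534A LPS livers, 10.99, 10.96, 10.85 and 10.93 in the untreated S534A livers, 11.12, 11.32, 11.15 and 11.32 in the WT LPS livers, and 10.79, 11.07, 10.91 and 10.88 in the untreated WT livers. Every LPS array lay above every untreated array of its genotype. The change was 0.31 ± 0.08 in S534A (limma adjusted p = 0.00311) and 0.31 ± 0.08 in WT livers (limma adjusted p = 0.00274), a 1.24-fold rise in S534A and a 1.24-fold rise in WT livers. Both calls held in all 28 other settings run at the same threshold.

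Sult1d1, which in mice sulfates catecholamines such as dopamine, had values of 11.34, 10.85, 11.38 and 11.06 in the S534A LPS livers, 11.73, 11.95, 11.43 and 11.64 in the untreated S534A livers, 11.23, 11.37, 11.35 and 11.27 in the WT LPS livers, and 10.78, 11.68, 11.11 and 11.59 in the untreated WT livers. The S534A groups did not overlap, and in WT livers the untreated arrays ranged on both sides of the LPS arrays, with replicates 1 and 3 the low ones. The change was −0.53 ± 0.17 in S534A (limma adjusted p = 0.0176) and 0.01 ± 0.17 in WT livers, which did not pass (limma adjusted p = 0.961). The difference between genotypes was −0.54 ± 0.24, with a limma adjusted p of 0.951. The S534A call was lost without S534A LPS replicate 2 (adjusted p = 0.0673) or untreated S534A replicate 2 (adjusted p = 0.0620).

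Sult2a8, a mouse liver sulfotransferase of bile acids, had values of 11.60, 11.86, 12.02 and 11.86 in the S534A LPS livers, 12.48, 12.48, 12.45 and 12.40 in the untreated S534A livers, 11.94, 11.80, 11.98 and 11.76 in the WT LPS livers, and 12.36, 12.21, 12.36 and 12.47 in the untreated WT livers. Groups did not overlap in either genotype. The change was −0.62 ± 0.09 in S534A (limma adjusted p = 1.53e-05) and −0.48 ± 0.09 in WT livers (limma adjusted p = 0.000191). Sult5a1 had values of 7.82, 8.25, 8.33 and 8.16 in the S534A LPS livers, 8.82, 8.54, 8.64 and 8.78 in the untreated S534A livers, 8.19, 8.75, 8.68 and 8.11 in the WT LPS livers, and 8.81, 8.52, 9.13 and 8.86 in the untreated WT livers. The S534A groups were apart and the WT groups overlapped. Sult5a1 changed by −0.56 ± 0.16 in S534A (limma adjusted p = 0.00721) and by −0.40 ± 0.16 in WT livers (limma adjusted p = 0.0457), and the WT call was lost without any of untreated WT replicates 1, 3 and 4, WT LPS replicates 1 and 4, S534A LPS replicates 2 and 4 and the 4 untreated S534A replicates (adjusted p up to 0.163) and without the 3 arrays of low clock score (−0.26, adjusted p = 0.291). Sult2b1, which sulfates cholesterol and pregnenolone, had values of 5.64, 5.74, 5.76 and 5.78 in the S534A LPS livers, 5.59, 5.66, 5.73 and 5.74 in the untreated S534A livers, 5.62, 5.73, 6.00 and 5.86 in the WT LPS livers, and 5.75, 5.75, 5.90 and 5.67 in the untreated WT livers. Sult4a1, known from brain, had values of 5.82, 5.79, 5.92 and 5.97 in the S534A LPS livers, 5.74, 5.76, 5.75 and 5.89 in the untreated S534A livers, 6.05, 5.61, 5.83 and 5.96 in the WT LPS livers, and 6.03, 5.97, 5.92 and 5.51 in the untreated WT livers. Both stood close above the filter line with overlapping groups, had changes between 0.01 and 0.09 in the 2 genotypes and did not pass.

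Sult1e1, the estrogen sulfotransferase, did not pass the filter and was therefore outside the main test. Its values were 6.09, 4.61, 5.11 and 5.02 in the S534A LPS livers, 4.35, 4.53, 4.36 and 4.42 in the untreated S534A livers, 5.36, 4.98, 5.34 and 5.45 in the WT LPS livers, and 4.29, 4.59, 4.33 and 4.38 in the untreated WT livers. Every LPS array was above every untreated array in both genotypes, and S534A LPS replicate 1 was the highest. In the fit with no filter on low values, its change was 0.80 ± 0.21 in S534A (limma adjusted p = 0.00738) and 0.89 ± 0.21 in WT livers (limma adjusted p = 0.00346). Most of these values lie under the filter line, so the size of this rise is not well fixed.

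All 19 GST genes passed the filter. In S534A livers 10 fell (52.6%, against 31.2% of all genes) and 1 rose (5.26%, against 14.2%). In WT livers 10 fell (52.6%, against 29.9%) and 0 rose (against 14.9%). By class, S534A livers had falls in 1 of 2 alpha, 5 of 7 mu, 3 of 4 theta and the 1 zeta gene, and the rise was Gstp1 of the pi class. WT livers had falls in 1 of 2 alpha, 4 of 7 mu, 2 of 4 theta, 1 of 2 pi (Gstp1), 1 of 2 omega and the 1 zeta gene. Gstk1, of the mitochondrial and peroxisomal kappa class, passed in neither genotype. Counts in classes of 1 to 7 genes are too small to set against the shares of all genes.

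Gstt2, a theta class enzyme that acts on organic hydroperoxides and sulfate esters, had values of 8.26, 7.75, 7.83 and 8.14 in the S534A LPS livers, 9.30, 9.10, 8.85 and 9.27 in the untreated S534A livers, 7.74, 8.03, 7.73 and 7.85 in the WT LPS livers, and 8.54, 9.60, 8.56 and 9.87 in the untreated WT livers. LPS and untreated arrays did not overlap in either genotype, and untreated WT replicates 1 and 3 were about 1 unit below replicates 2 and 4. The change was −1.13 ± 0.24 in S534A, a 2.19-fold fall (limma adjusted p = 0.000874), and −1.31 ± 0.24 in WT livers, a 2.47-fold fall (limma adjusted p = 0.000258). Without the 3 arrays of low clock score the WT change was −1.90.

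Gstt3 had values of 9.84, 9.34, 9.33 and 9.39 in the S534A LPS livers, 10.28, 10.22, 10.29 and 10.36 in the untreated S534A livers, 9.50, 9.88, 9.58 and 9.77 in the WT LPS livers, and 9.76, 10.18, 10.25 and 10.23 in the untreated WT livers. The S534A groups did not overlap, and the WT groups overlapped because untreated WT replicate 1 lay among the LPS arrays. The change was −0.81 ± 0.13 in S534A (limma adjusted p = 4.83e-05) and −0.42 ± 0.13 in WT livers (limma adjusted p = 0.0105). Gstt1, which conjugates small halogenated compounds, had values of 11.66, 11.55, 11.55 and 11.63 in the S534A LPS livers, 11.85, 11.86, 11.91 and 11.99 in the untreated S534A livers, 11.83, 11.81, 11.75 and 11.72 in the WT LPS livers, and 11.76, 11.97, 11.95 and 11.93 in the untreated WT livers. Its S534A groups did not overlap and its WT groups did. Gstt1 changed by −0.31 ± 0.06 in S534A (limma adjusted p = 0.000746) and by −0.12 ± 0.06 in WT livers, which did not pass (limma adjusted p = 0.131). Without untreated WT replicate 1 the WT change passed (−0.17, adjusted p = 0.0414). The difference between genotypes was −0.18 ± 0.09 (limma adjusted p = 0.951). Gstt4 had values of 5.17, 5.48, 5.37 and 5.46 in the S534A LPS livers, 5.46, 5.31, 5.36 and 5.55 in the untreated S534A livers, 5.39, 5.23, 5.43 and 5.38 in the WT LPS livers, and 5.35, 5.49, 5.43 and 5.27 in the untreated WT livers. It was near the filter line in all groups, which overlapped, and changed by −0.05 ± 0.08 in S534A and −0.03 ± 0.08 in WT livers, neither past the threshold.

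The 7 mu class genes lie together on chromosome 3, are close paralogs, and cross-hybridization between them was not tested. Gstm4 had values of 10.90, 11.04, 11.07 and 11.25 in the S534A LPS livers, 11.42, 11.49, 11.88 and 11.65 in the untreated S534A livers, 11.11, 11.30, 11.40 and 11.35 in the WT LPS livers, and 11.99, 11.64, 11.83 and 11.49 in the untreated WT livers. Groups did not overlap in either genotype, and untreated WT replicate 1 was the highest array. Gstm4 changed by −0.54 ± 0.12 in S534A (limma adjusted p = 0.00112) and by −0.45 ± 0.12 in WT livers (limma adjusted p = 0.00493). The WT call was lost without the 3 arrays of low clock score (−0.27, adjusted p = 0.0610). Gstm7 had values of 11.47, 11.28, 11.25 and 11.45 in the S534A LPS livers, 11.57, 11.63, 11.79 and 11.71 in the untreated S534A livers, 11.44, 11.54, 11.50 and 11.61 in the WT LPS livers, and 11.94, 11.60, 11.84 and 11.82 in the untreated WT livers. The S534A groups were apart, and the WT groups overlapped. Gstm7 changed by −0.31 ± 0.08 in S534A (limma adjusted p = 0.00436) and by −0.28 ± 0.08 in WT livers (limma adjusted p = 0.0101), and its WT call was also lost without those 3 arrays (−0.19, adjusted p = 0.130).

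Gstm6 had values of 11.00, 10.60, 10.84 and 11.03 in the S534A LPS livers, 11.11, 11.10, 11.44 and 11.20 in the untreated S534A livers, 11.10, 11.22, 11.16 and 11.25 in the WT LPS livers, and 11.38, 11.21, 11.52 and 11.33 in the untreated WT livers. Its S534A groups did not overlap, its WT groups did, and the S534A LPS livers were all below the WT LPS livers. Gstm6 changed by −0.34 ± 0.10 in S534A (limma adjusted p = 0.00933) and by −0.18 ± 0.10 in WT livers, which did not pass (limma adjusted p = 0.17). Gstm2 had values of 10.10, 9.78, 10.01 and 10.18 in the S534A LPS livers, 10.24, 10.22, 10.47 and 10.37 in the untreated S534A livers, 10.11, 10.29, 10.16 and 10.45 in the WT LPS livers, and 10.49, 10.46, 10.58 and 10.59 in the untreated WT livers. LPS and untreated groups did not overlap in either genotype. Gstm2 changed by −0.31 ± 0.09 in S534A (limma adjusted p = 0.0125) and by −0.28 ± 0.09 in WT livers (limma adjusted p = 0.0229). The S534A call was lost without S534A LPS replicate 2 (−0.23, adjusted p = 0.0534), and the WT call without any of untreated WT replicates 3 and 4 and WT LPS replicates 1 and 3 (adjusted p from 0.0547 to 0.0809). Without the 3 arrays of low clock score neither call of Gstm2 passed (adjusted p = 0.0560 in S534A and 0.0804 in WT). Gstm5 had values of 7.84, 7.32, 7.65 and 8.15 in the S534A LPS livers, 8.30, 8.05, 8.27 and 8.28 in the untreated S534A livers, 7.77, 8.34, 8.08 and 8.11 in the WT LPS livers, and 8.52, 8.53, 8.27 and 8.61 in the untreated WT livers. It changed by −0.49 ± 0.15 in S534A (limma adjusted p = 0.0122) and by −0.41 ± 0.15 in WT livers (limma adjusted p = 0.0322), with overlapping groups in both. The S534A call of Gstm5 was lost without S534A LPS replicate 2 (−0.35, adjusted p = 0.0508), and the WT call without any of untreated WT replicates 1, 2 and 4 and WT LPS replicates 1, 3 and 4 (adjusted p from 0.0520 to 0.122). Gstm1 (−0.05 ± 0.09 in S534A, −0.12 ± 0.09 in WT) and Gstm3 (−0.09 ± 0.13 in S534A, −0.06 ± 0.13 in WT) did not pass.

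Gsta3, whose product protects mouse liver against the aflatoxin epoxide, had values of 12.75, 12.83, 12.97 and 12.93 in the S534A LPS livers, 13.16, 13.21, 13.23 and 13.17 in the untreated S534A livers, 12.88, 13.10, 13.01 and 13.01 in the WT LPS livers, and 13.19, 13.17, 13.25 and 13.20 in the untreated WT livers. Groups did not overlap in either genotype. Gsta3 changed by −0.32 ± 0.06 in S534A (limma adjusted p = 0.000552) and by −0.20 ± 0.06 in WT livers (limma adjusted p = 0.0158). The WT call was lost without WT LPS replicate 1 (−0.16, adjusted p = 0.0623) and without the 3 arrays of low clock score (−0.19, adjusted p = 0.0976). Gsta4, which conjugates the lipid peroxidation product 4-hydroxynonenal, had values of 11.19, 10.67, 10.92 and 10.70 in the S534A LPS livers, 11.25, 11.14, 10.98 and 11.14 in the untreated S534A livers, 10.86, 10.84, 11.12 and 10.82 in the WT LPS livers, and 10.93, 11.63, 10.86 and 11.34 in the untreated WT livers. Its groups overlapped in both genotypes. Gsta4 changed by −0.26 ± 0.15 in S534A (limma adjusted p = 0.185) and by −0.28 ± 0.15 in WT livers (limma adjusted p = 0.148), neither past the threshold. Without the 3 arrays of low clock score the WT change was −0.58 (adjusted p = 0.00383), and without untreated WT replicate 3 alone it was −0.39 (adjusted p = 0.0459).

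Gstz1, the maleylacetoacetate isomerase of tyrosine breakdown, had values of 12.17, 12.07, 12.27 and 12.27 in the S534A LPS livers, 12.41, 12.48, 12.41 and 12.47 in the untreated S534A livers, 12.27, 12.27, 12.34 and 12.17 in the WT LPS livers, and 12.56, 12.43, 12.53 and 12.66 in the untreated WT livers. Groups did not overlap in either genotype. Gstz1 changed by −0.25 ± 0.07 in S534A (limma adjusted p = 0.00624) and by −0.28 ± 0.07 in WT livers (limma adjusted p = 0.00259). Gsto1, an omega class enzyme that reduces dehydroascorbate, had values of 10.75, 10.56, 10.77 and 10.68 in the S534A LPS livers, 10.80, 10.74, 11.08 and 10.84 in the untreated S534A livers, 10.57, 10.71, 10.74 and 10.67 in the WT LPS livers, and 10.92, 10.92, 10.99 and 11.04 in the untreated WT livers. The S534A groups overlapped and the WT groups did not. Gsto1 changed by −0.18 ± 0.08 in S534A, which did not pass (limma adjusted p = 0.0744; 0.0437 without untreated S534A replicate 2), and by −0.30 ± 0.08 in WT livers (limma adjusted p = 0.00468). Gsto2 had values of 5.31, 5.25, 5.26 and 5.34 in the S534A LPS livers, 5.27, 5.30, 5.44 and 5.44 in the untreated S534A livers, 5.21, 4.97, 5.26 and 5.24 in the WT LPS livers, and 5.24, 5.30, 5.43 and 5.27 in the untreated WT livers. It stood near the filter line, above it in 5 arrays, had overlapping groups, and changed by −0.07 ± 0.07 in S534A and −0.14 ± 0.07 in WT livers, neither past the threshold. Gstk1 had values of 12.81, 12.62, 12.70 and 12.61 in the S534A LPS livers, 12.75, 12.79, 12.80 and 12.82 in the untreated S534A livers, 12.75, 12.76, 12.83 and 12.69 in the WT LPS livers, and 12.90, 12.81, 12.88 and 12.90 in the untreated WT livers. The WT LPS livers, except replicate 3, were below every untreated WT liver, and the S534A groups overlapped through LPS replicate 1. Gstk1 changed by −0.11 ± 0.06 in S534A and −0.12 ± 0.06 in WT livers, also not past it.

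Gstp1, the pi class enzyme that is more abundant in male than in female mouse liver, was called in opposite directions in the 2 genotypes. Its values were 13.70, 13.89, 13.92 and 13.75 in the S534A LPS livers, 13.55, 13.65, 13.54 and 13.74 in the untreated S534A livers, 13.59, 13.69, 13.77 and 13.70 in the WT LPS livers, and 14.04, 13.97, 13.87 and 14.01 in the untreated WT livers. The untreated S534A livers were all below the untreated WT livers, the S534A groups overlapped, and the WT LPS arrays were all below the untreated WT arrays. Gstp1 changed by 0.20 ± 0.07 in S534A, a 1.15-fold rise (limma adjusted p = 0.0347), and by −0.28 ± 0.07 in WT livers, a 1.22-fold fall (limma adjusted p = 0.00361). The test of the difference itself did not pass over all genes: the LPS change in S534A minus that in WT was 0.48 ± 0.10 (95% interval 0.27 to 0.70, limma adjusted p = 0.875).

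The rise in S534A livers was lost in 9 of the 28 other settings at the same threshold, against 15 for Sult5a1 and 12 for Ugt2b5 in WT livers. The Gstp1 call was lost under median centring (0.10, adjusted p = 0.305), a second quantile normalization (0.17, 0.0552) and the replicate number as a block (0.20, 0.0506), without S534A LPS replicate 2 (0.17, 0.0975) or 3 (0.16, 0.110), without untreated S534A replicate 1 (0.17, 0.0978), 2 (0.21, 0.0506) or 3 (0.17, 0.0956), and without the 3 arrays of low clock score (0.17, 0.0973). The fall in WT livers held in the same settings. These values are near the top of the array range, whose highest value was 14.54, and saturation was not assessed because no scanner files were used. A probe set shared with Gstp2 was not used. Gstp3 had values of 9.22, 8.56, 8.77 and 9.15 in the S534A LPS livers, 8.99, 9.40, 8.90 and 9.47 in the untreated S534A livers, 9.03, 9.62, 9.03 and 9.28 in the WT LPS livers, and 9.26, 9.46, 8.84 and 9.35 in the untreated WT livers. Its groups overlapped in both genotypes, and it changed by −0.27 ± 0.18 in S534A and 0.01 ± 0.18 in WT livers, neither past the threshold.

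**Figure D3:**
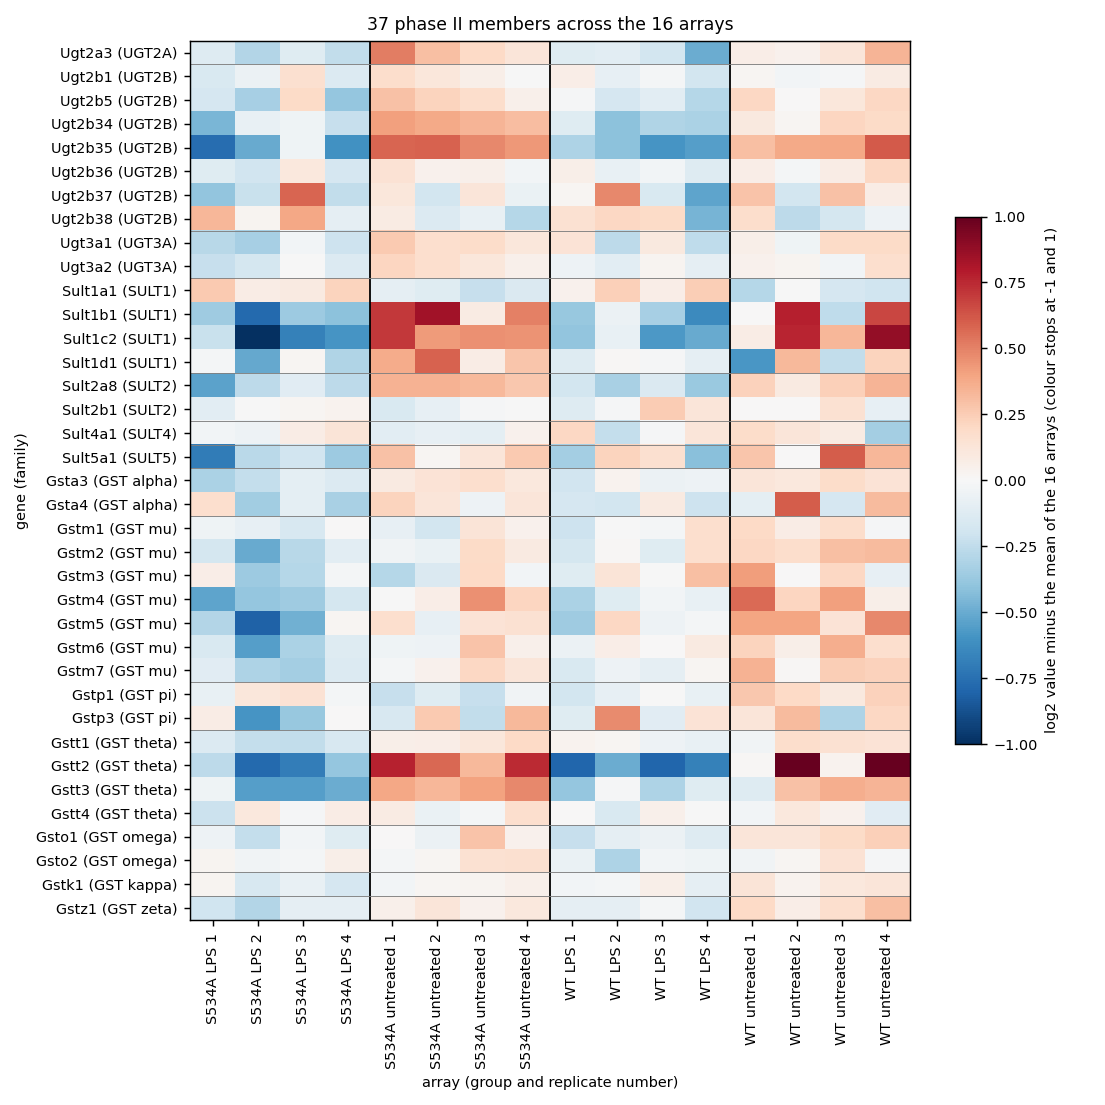
Log2 value minus the mean of the 16 arrays (colour, blue below and red above, stopped at −1 and 1) for the 37 tested members by family in rows and the 16 arrays in columns, S534A LPS, untreated S534A, WT LPS and untreated WT from left to right. LPS columns are mostly blue and untreated columns mostly red, Sult1a1 runs the other way, and Gstt2 is near 0 in untreated WT replicates 1 and 3 and deep red in replicates 2 and 4.

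The genotypes were compared directly after LPS and without treatment. After LPS, 0 of the 37 members differed between S534A and WT livers, where 0% of all genes did, and 4 members and 477 of the 15908 genes had an unadjusted limma p under 0.05. Those of lowest p were Gstm6 (−0.31 ± 0.10), Gstt1 (−0.18 ± 0.06) and Gstm2 (−0.24 ± 0.09), all with a limma adjusted p of 1.00. S534A LPS livers were all below WT LPS livers for 2 members, Gstm6 and Gstt1, a share of 5.41% against 1.29% of all genes, and all above for 0 members, against 0.742% of all genes. Of the members, the median difference was −0.07 and the median SE 0.10, so a 95% interval spans about 0.21 either way.

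Without treatment, 0 members differed between S534A and WT livers, where 0.0126% of all genes did (0.00629% higher and 0.00629% lower), and 4 members and 1412 genes had an unadjusted p under 0.05. The difference of Gstp1, untreated S534A minus untreated WT, was −0.35 ± 0.07, with groups that did not overlap (limma adjusted p = 0.121). It passed with array quality weights (−0.28, adjusted p = 0.0472) and with a trended and robust eBayes (−0.35, adjusted p = 0.0407). Ugt2b34 was 0.23 ± 0.09, with all untreated S534A above all untreated WT livers, and Sult1d1 was 0.40 ± 0.17 with overlapping groups (limma adjusted p = 0.46 and 0.512). Non-overlap was thus seen in 1 member below and 1 above, 2.70% each, against 3.62% and 2.07% of all genes.

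The interaction, the LPS change in S534A minus that in WT livers, passed for 0 members and 0% of all genes, with 3 members and 766 genes at an unadjusted p under 0.05. After Gstp1, the lowest p values were those of Sult1d1 (−0.54 ± 0.24) and Gstt3 (−0.39 ± 0.18), both with a limma adjusted p of 0.951. Gstm6, Gstt1, Sult1d1, Ugt3a1 and Ugt3a2 fell past the threshold in S534A and not in WT livers, and Gsto1 in WT and not in S534A livers. None of these passed as a difference between the genotypes, and with median centring Gstm6, Gstt1, Ugt3a1 and Ugt3a2 also passed in WT livers and Gsto1 in S534A livers.

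The genes that supply the 3 reactions, carry the products out of the cell or control the enzymes were read from lists drawn up with earlier results known. The shares of each list are set beside those of all genes, 31.2% lower and 14.2% higher in S534A and 29.9% lower and 14.9% higher in WT livers. The interaction passed for 0 genes in each list named here and below. A call in only 1 genotype is thus not read as a difference between genotypes. For UDP-glucuronic acid, 4 of 6 genes fell (66.7%) and 1 rose in S534A livers, and 1 fell (16.7%) and 1 rose (16.7%) in WT livers, where the share that fell was below that of all genes and the share that rose close to it. Ugdh, which makes UDP-glucuronic acid, changed by −0.31 ± 0.10 in S534A and −0.39 ± 0.10 in WT livers (limma adjusted p = 0.0156 and 0.0031). Ugp2, which makes UDP-glucose, fell in S534A (−0.49 ± 0.14, adjusted p = 0.00821) and was −0.32 ± 0.14 in WT livers, which did not pass (adjusted p = 0.0774). The gene annotated Pgm2, a phosphoglucomutase, rose by 0.97 ± 0.09 in S534A and by 1.08 ± 0.09 in WT livers (limma adjusted p = 2.46e-07 and 7.62e-08).

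For PAPS, 4 of the 6 tested genes fell (66.7%) and 1 rose (16.7%) in each genotype, where 31.2% of all genes fell and 14.2% rose in S534A and 29.9% fell and 14.9% rose in WT livers. Slc26a1, a sulfate transporter of the liver cell membrane, changed by −1.15 ± 0.09 in S534A and −1.12 ± 0.09 in WT livers (limma adjusted p = 2.99e-08 and 4.25e-08). Papss2, a PAPS synthase, changed by −0.59 ± 0.10 in S534A (limma adjusted p = 0.000173) and by −0.20 ± 0.10 in WT livers, which did not pass (adjusted p = 0.138). The 2 Golgi PAPS transporters moved in opposite directions: Slc35b2 changed by −0.45 ± 0.09 in S534A and −0.62 ± 0.09 in WT livers, and Slc35b3 by 0.40 ± 0.09 in S534A and 0.59 ± 0.09 in WT livers, each past the threshold.

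For glutathione, 4 of 9 genes fell (44.4%, against 31.2% of all genes) and 1 rose (11.1%, against 14.2%) in S534A livers, and 3 fell (33.3%, against 29.9%) and 3 rose (33.3%, against 14.9%) in WT livers. The share that fell in WT and the share that rose in S534A livers were near those of all genes. The subunits of glutamate-cysteine ligase, the rate-limiting enzyme, fell in both genotypes, with changes of −0.59 ± 0.15 in S534A and −0.66 ± 0.15 in WT livers for Gclc and of −0.58 ± 0.07 in S534A and −0.62 ± 0.07 in WT livers for Gclm, as did glutathione synthetase, Gss (−0.56 ± 0.12 in S534A, −0.62 ± 0.12 in WT). The largest of their limma adjusted p values was 0.00397. Slc7a11, which imports cystine, rose by 0.82 ± 0.09 in S534A and 0.82 ± 0.09 in WT livers (limma adjusted p = 8.26e-07 and 8.19e-07). Cth, which makes cysteine by transsulfuration, fell in S534A (−0.46 ± 0.07, adjusted p = 3.3e-05) and was −0.03 ± 0.07 in WT livers, which did not pass (adjusted p = 0.813).

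**Figure D4:**
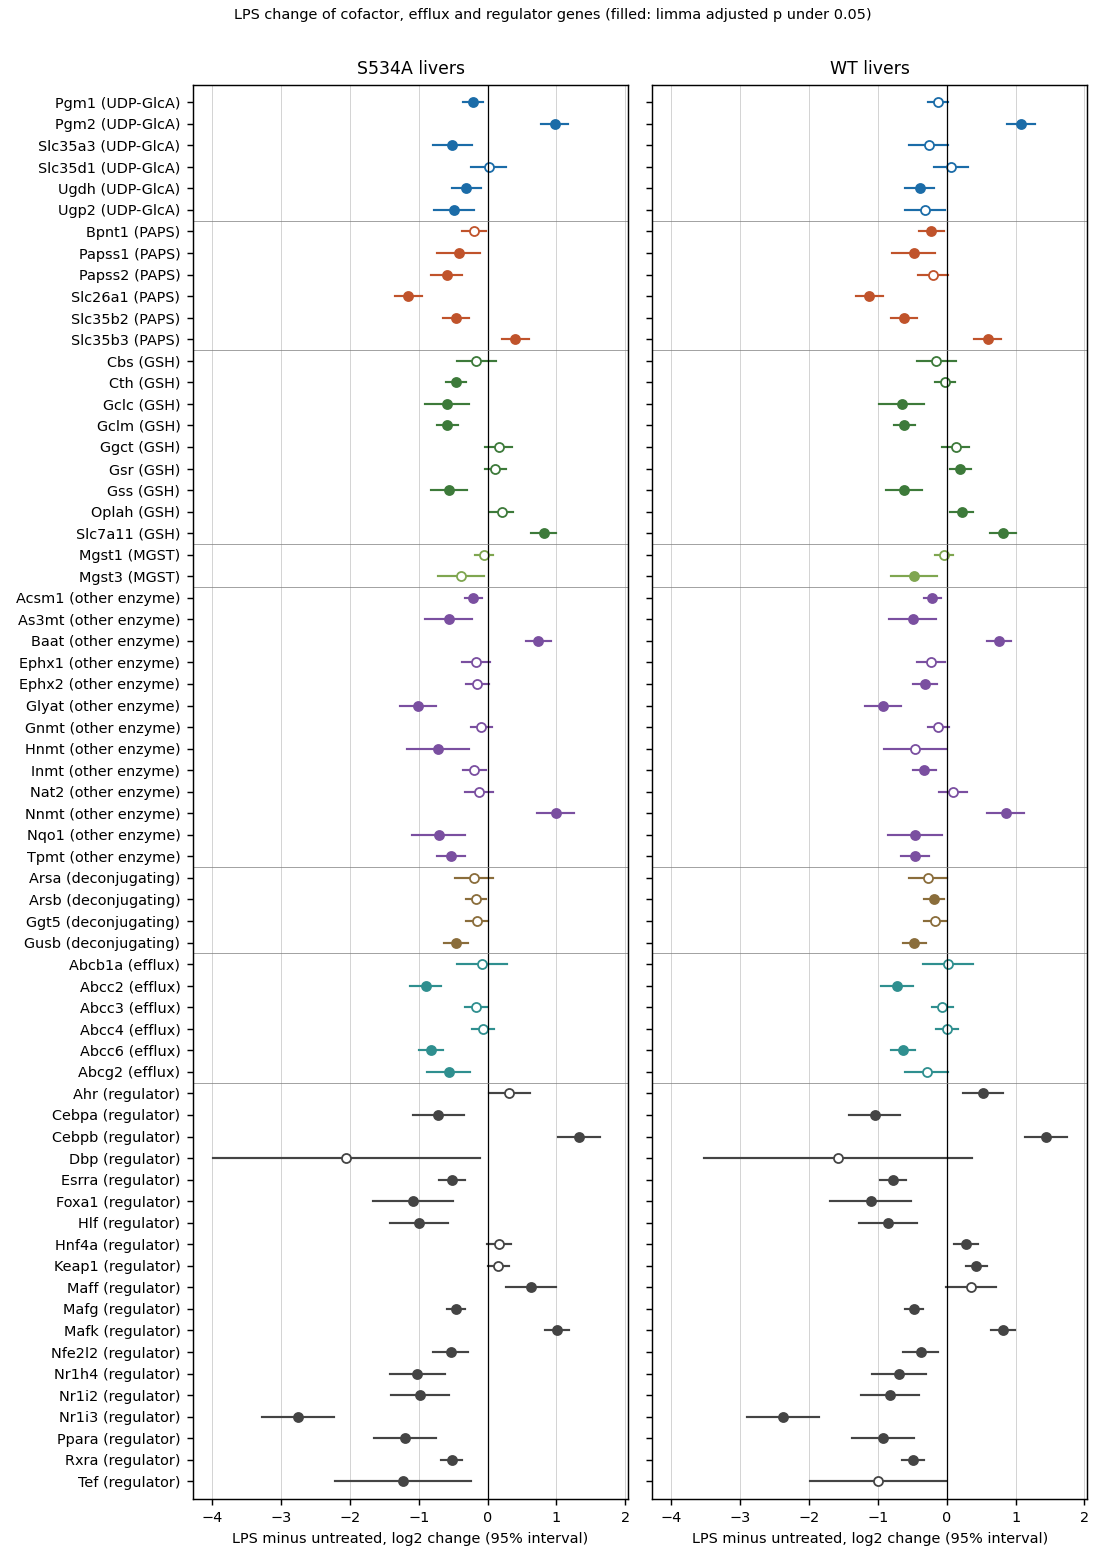
LPS minus untreated change on the log2 scale (horizontal axis) with its 95% interval for genes of cofactor supply, other conjugating and deconjugating enzymes, efflux transporters and regulators, in S534A livers on the left and WT livers on the right. Filled points passed limma at an adjusted p under 0.05. Nr1i3 is the point farthest to the left in both panels, and Cebpb, Mafk, Pgm2, Nnmt and Slc7a11 lie to the right of 0 in both.

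Of 6 efflux transporters, 3 fell in S534A (50%, against 31.2% of all genes) and 2 in WT livers (33.3%, against 29.9%, a share near that of all genes). Abcc2, which exports glucuronides and glutathione conjugates into bile, changed by −0.90 ± 0.11 in S534A and −0.72 ± 0.11 in WT livers (limma adjusted p = 2.85e-06 and 3.26e-05). Abcc6 changed by −0.82 ± 0.08 in S534A and −0.63 ± 0.08 in WT livers, both past the threshold. Abcg2, which exports sulfate conjugates, changed by −0.56 ± 0.15 in S534A (adjusted p = 0.00436) and by −0.29 ± 0.15 in WT livers, which did not pass (adjusted p = 0.121). Abcc3 and Abcc4, which export conjugates to blood, did not pass in either genotype.

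Of 19 regulators tested, 12 fell (63.2%, against 31.2% of all genes) and 3 rose (15.8%, against 14.2%, a share near that of all genes) in S534A livers, and 11 fell (57.9%, against 29.9%) and 5 rose (26.3%, against 14.9%) in WT livers. Nr1i3, the nuclear receptor CAR, changed by −2.76 ± 0.25 in S534A, a 6.76-fold fall, and by −2.37 ± 0.25 in WT livers, a 5.19-fold fall (limma adjusted p = 1.07e-07 and 6.37e-07). Cebpb, an acute-phase transcription factor, rose by 1.32 ± 0.14 in S534A and 1.45 ± 0.14 in WT livers (limma adjusted p = 1.06e-06 and 4e-07). Of the small Maf partners of NRF2, Mafk rose (1.00 ± 0.08 in S534A, 0.81 ± 0.08 in WT) and Mafg fell (−0.46 ± 0.06 in S534A, −0.48 ± 0.06 in WT). Nr1i2, the receptor PXR, and Nfe2l2, which encodes NRF2, were picked after their values were seen: Nr1i2 changed by −0.99 ± 0.20 in S534A and −0.82 ± 0.20 in WT livers, and Nfe2l2 by −0.54 ± 0.12 in S534A and −0.38 ± 0.12 in WT livers, each past the threshold.

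Markers of several other cell types moved with LPS in both genotypes. Of all genes, 31.2% fell and 14.2% rose in S534A, and 29.9% fell and 14.9% rose in WT livers. All 6 neutrophil markers rose in each, and the mean of that list was 7.62 to 7.97 in S534A LPS against 5.66 to 5.76 in untreated S534A livers, and 7.55 to 8.30 in WT LPS against 5.57 to 5.65 in untreated WT livers. Of 6 Kupffer cell markers 5 fell in each genotype, with list means of 7.87 to 8.33 in S534A LPS against 9.23 to 9.73 in untreated S534A livers, and 8.21 to 8.58 in WT LPS against 9.44 to 9.91 in untreated WT livers. Of 6 endothelial markers 5 fell and 1 rose, and of 6 stellate cell and fibroblast markers 4 fell, in each genotype. Of 9 hepatocyte markers tested, 1 rose and 1 fell in S534A livers, and 3 rose and 1 fell in WT livers. In each genotype 1 rose and 1 fell of 4 cholangiocyte markers, and likewise of 2 monocyte markers. The 2 B cell markers tested fell in each. The 1 erythroid marker tested fell in WT livers and did not pass in S534A livers. Of 3 T and NK cell markers and 5 markers of pancreas, intestine and fat, 0 passed in either genotype. The part of these shifts in the changes of the conjugating enzymes was not tested.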

How the data were processed

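The 16 arrays were grouped by sample titles, 4 per group. The authors deposited log2 values made with RMA, per the submitters' processing notes; its version was not given, and no scanner files were used. The series text also gives the LPS dose for the untreated S534A group; titles and source names were followed. Of 35556 probe sets, 21789 had 1 gene symbol, 1621 several and 12146 none in the platform annotation; 21698 matched a RefSeq gene identifier (GRCm38.p6) and 0 symbols changed. Several-symbol probe sets, 12 of them with a member-type name, were not used.

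Single-symbol probe sets above the 30th percentile of their array in at least 4 arrays were kept, the one of highest mean per gene, which left 15908 genes. The 4 group means were fitted with limma 3.58.1 (R 4.3.3; lmFit, contrasts.fit, eBayes) over 16 arrays (12 residual degrees of freedom, prior 4.28), with two-sided tests adjusted by Benjamini-Hochberg over all genes at 0.05. Precision is limited by 4 arrays per group. The fit was tested on simulated data. Members, lists and alternatives were chosen with earlier results of these data known. The text names every member, and gives array by array up to 4 members of lowest adjusted p per family or class, the highest of UGT, SULT and GST in mean level and those of lowest p between genotypes, with Sult1e1 added after its values were seen, and up to 5 genes of lowest adjusted p per other list. Replicate numbers were not used to pair the samples: 9 of 24 same-numbered pairs had r above 0.1. These correlations cannot exclude that same-numbered samples were handled together. Alternatives are named with their effects in the closing section. Plots were made in Python 3.11.15 with matplotlib 3.10.9.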

Additional observations from a re-analysis of the deposited data

Results flagged for a closer look

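In 9 of 148 groups of 4 arrays 1 array stood far from the other 3 by Dixon's test, which chance alone does in about 1 group in 20. Among S534A LPS livers these were Gstt3 in replicate 1, at 9.84 with the others between 9.33 and 9.39, and Sult1b1 in replicate 2, at 8.22 with the others between 8.58 and 8.63. Among untreated S534A livers they were Gstm5 in replicate 2 (8.05, others 8.27 to 8.30), Sult1c2 in replicate 1 (7.86, others 7.59 to 7.62) and Sult4a1 in replicate 4 (5.89, others 5.74 to 5.76). Among WT LPS livers they were Gsta4 in replicate 3 (11.12, others 10.82 to 10.86), Gsto2 in replicate 2 (4.97, others 5.21 to 5.26) and Ugt2b38 in replicate 4 (10.49, others 11.11 to 11.17). Among untreated WT livers it was Gstt3 in replicate 1 (9.76, others 10.18 to 10.25), an array of low clock score. All values are log2.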

How the results depend on the processing

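The count of members called after LPS was 23 in S534A and 19 in WT livers. It moved beyond 1.5 times with a 1.5-fold minimum (6 in S534A, 4 in WT) and, in WT livers, at an adjusted p of 0.01 (11). Leaving out each array in turn gave 19 to 24 in S534A and 14 to 19 in WT livers, and 0 in each of the genotype and interaction comparisons. An adjusted p of 0.01 gave 18 in S534A livers. The other settings gave 21 to 27 in S534A and 14 to 27 in WT livers, highest with array quality weights in S534A and median centring in WT, and lowest without the 3 arrays of low clock score. The untreated comparison of genotypes had 0 members, and 1 (Gstp1) with array quality weights and 1 with a trended and robust eBayes; the comparison after LPS and the interaction stayed at 0 in the settings run. Of 42 calls, none changed sign in any setting. Over the 28 settings that keep the threshold, 19 of 23 calls in S534A and 11 of 19 in WT livers passed each time; those lost at least once were Gstp1, Gstm2, Gstm5 and Sult1d1 in S534A and Gsta3, Gstm2, Gstm4, Gstm5, Gstm7, Sult1b1, Sult5a1 and Ugt2b5 in WT livers. The cause of these losses was not tested. Median centring added Gstk1, Gsto1, Ugt2b1 and Ugt2b36 in S534A and Gstk1, Gstm1, Gstm6, Gsto2, Gstt1, Ugt2b36, Ugt3a1 and Ugt3a2 in WT livers. With the replicate number as a block, 22 members were called in S534A and 19 in WT livers and 0 in the other comparisons; Gstp1 in S534A lost its call (adjusted p = 0.0506) and no other call changed. Same-numbered samples had r from −0.49 to 0.59 and 7 of 24 correlated best with their own number, so the block is not read as pairing. A fit of only the 2 groups compared is not possible for the interaction.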

Other observations

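Conjugating enzymes outside the 3 superfamilies also moved after LPS. Of 13 tested genes of methylation, acetylation, amino acid conjugation, epoxide hydrolysis and quinone reduction, 6 fell and 2 rose in S534A livers, and 7 fell and 2 rose in WT livers, against 31.2% of all genes lower and 14.2% higher in S534A and 29.9% lower and 14.9% higher in WT. Glyat, which conjugates benzoate with glycine, changed by −1.01 ± 0.12 in S534A and −0.93 ± 0.12 in WT livers (limma adjusted p = 4.41e-06 and 1.09e-05). Baat, which conjugates bile acids with taurine, rose by 0.73 ± 0.08 in S534A and 0.76 ± 0.08 in WT livers, and Nnmt, which methylates nicotinamide, rose by 0.99 ± 0.13 in S534A and 0.85 ± 0.13 in WT livers, each past the threshold. Tpmt, which methylates thiopurines, changed by −0.53 ± 0.10 in S534A and −0.46 ± 0.10 in WT livers, both past it. Of 2 microsomal glutathione transferases, Mgst3 changed by −0.38 ± 0.16 in S534A, which did not pass (limma adjusted p = 0.0546), and by −0.48 ± 0.16 in WT livers (adjusted p = 0.0186), and Mgst1 passed in neither.

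Of 4 tested enzymes that split conjugates, Gusb, the lysosomal beta-glucuronidase, fell in both genotypes (−0.46 ± 0.08 in S534A, −0.47 ± 0.08 in WT), and Arsb, an arylsulfatase, was −0.17 ± 0.07 in S534A livers, which did not pass (limma adjusted p = 0.0545), and fell in WT livers (−0.18 ± 0.07, limma adjusted p = 0.036).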
